A study of Homo sapiens with 6 samples.

Results

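The annexins are a family of proteins that bind acidic phospholipids of cell membranes in the presence of calcium. Each carries a conserved core that docks on the membrane and an N-terminal tail that differs between members and binds partners such as S100 proteins. The family is known for membrane organisation and repair, for vesicle traffic and, when secreted or exposed at the surface, for roles in inflammation and coagulation. In kidney epithelium several members lie at the apical or lateral membrane.

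Of 10 listed annexin genes, 8 had an array row annotated to that gene alone, which makes 8 of the 12448 genes with such a row. Members were chosen by gene symbol. They were ANXA1, ANXA2, ANXA3, ANXA4, ANXA5, ANXA6, ANXA7 and ANXA11, with 1 row each. ANXA9, whose row is shared with MINDY1, and ANXA13 were not analysed here. The family itself was selected on a measured value, the lower level of ANXA1 in both APE1 lines of these data, so every difference between lines is given here as a description and carries no test. What doxycycline did in all lines alike was not part of that choice and was tested.

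The values come from HEK293, an established human embryonic kidney cell line, in 3 derivatives with tet-on expression in the pcDNA-FRT vector. The vector line carries no insert, the wtAPE1 line carries inducible wild-type APE1, and the ubAPE1 line carries an inducible fusion of ubiquitin to APE1, a DNA repair endonuclease. Each line was sampled untreated and after 16 h with doxycycline, the inducer, at 2 µg/ml, and all 6 groups were grown with 10% serum and puromycin at 1 µg/ml. Each group is 1 deposited column that the authors averaged from 3 biological replicates, so the spread between replicates is not in the values. Whether a line is a clone or a pool of cells is not given in the sources used here, and each line is a single derivative, so anything else that differs between the derivatives cannot be told apart from what they carry.

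The columns had medians between 6.07 and 6.28 log2. APEX1, the gene of APE1, was at 9.54 and 9.66 log2 in vector cells without and with doxycycline, at 9.50 and 10.67 in wtAPE1 cells and at 9.82 and 10.58 in ubAPE1 cells, so its treated level was the higher one by a wide margin in the 2 lines labelled as inducible for APE1. Of 10 HEK293 markers, 8 were measured and 7 passed the row filter, which asked for a mean level of at least 5.03 log2 (the 25th percentile of row means). Passing the filter were 0 of 2 measured endothelial markers, 0 of 3 neutrophil and monocyte markers, 1 of 4 blood cell markers (CD68) and both measured fibroblast markers (COL1A1 and COL3A1). Differences below are log2 differences relative to the median row, meaning that the median difference over the 11619 rows passing the filter was subtracted. That shift was largest for the untreated wtAPE1 column, which lay -0.21 log2 against the untreated vector column. Without replicates, the median residual SD of the additive fit over lines and doxycycline, 0.151 log2, is used as a yardstick for small differences. It is a rough one, since it comes from values as deposited and holds column shifts and line-specific responses as well as noise. It is not a spread between replicates, and it refers to single values, so a difference of 2 columns would spread more widely.

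The results turn on ANXA1 and ANXA3, and the bases upstream of their RefSeq starts (GRCh38.p14, plus strand) are shown for reference. The 2 genes were picked for this with their levels known, and a link between this sequence and their levels was not tested. Each run is the 250 bases before the start, 5′ to 3′, and capitals mark matches on either strand to 5 searched motifs.
ANXA1, chr9:73151615-73151864: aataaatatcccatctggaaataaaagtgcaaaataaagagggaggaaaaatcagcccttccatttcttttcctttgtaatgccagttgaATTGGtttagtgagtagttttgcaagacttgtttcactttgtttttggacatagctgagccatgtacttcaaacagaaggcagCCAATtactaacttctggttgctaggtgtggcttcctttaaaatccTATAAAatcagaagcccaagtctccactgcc
ANXA3, chr4:78551520-78551769: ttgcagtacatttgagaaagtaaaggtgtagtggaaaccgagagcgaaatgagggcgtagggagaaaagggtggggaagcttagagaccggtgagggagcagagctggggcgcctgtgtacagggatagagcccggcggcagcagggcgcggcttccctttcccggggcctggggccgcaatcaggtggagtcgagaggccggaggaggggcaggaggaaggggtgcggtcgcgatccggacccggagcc

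The ANXA1 window held 38.4% G or C and 0 CG dinucleotides. The ANXA3 window held 64.0% G or C and 18 CG dinucleotides. Over 11 starts of the other annexins with a row, the ANXA3 start included, G and C made up more than in ANXA1 throughout, up to 78.8%, and CG dinucleotides numbered 5 to 36. Among the 35116 windows of the same length in the table, 10.1% had a lower G and C content than ANXA1. The ANXA1 window held a TATA box (TATAAA), which 10.7% of all windows hold, from base -31 to -26. It also held the CCAAT box (CCAAT, in 32.0% of windows) on the plus strand at -77 to -73 and on the minus strand at -160 to -156. The GC box (GGGCGG, in 42.6%), the AP-1 site (TGANTCA, in 6.57%) and the core of the glucocorticoid element (TGTTCT, in 12.4%) had no match in the ANXA1 window, and none of the 5 motifs matched in the ANXA3 window. All motifs were searched on both strands. The GC box was matched at 1 or more starts in 6 of the 8 annexin genes, that is in all but ANXA1 and ANXA3. The TATA box was matched in 3 genes (ANXA1, ANXA2 and ANXA11) and the CCAAT box in 4 (ANXA1, ANXA6, ANXA7 and ANXA11). The AP-1 site was matched in ANXA2 alone and the glucocorticoid core in ANXA11 alone. These counts are per gene, some with several starts, whereas the shares above are per window, so the 2 are not like for like. A match describes letters in this window and does not show that a factor binds there.

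ANXA1 and ANXA3 stood low in both APE1 lines, while the other 6 annexins stayed within 1.63-fold of the vector line at either doxycycline state. ANXA1 is a glucocorticoid-regulated annexin that limits phospholipase A2 activity and binds formyl peptide receptors. Its level was 7.57 log2 in the untreated and 7.09 in the treated vector line. In wtAPE1 cells it was 4.69 untreated and 5.37 treated, and in ubAPE1 cells 5.39 untreated and 5.18 treated. Both vector columns thus lay above all 4 columns of the APE1 lines, with no overlap, and the untreated wtAPE1 column was the lowest. Relative to the median row, ANXA1 in wtAPE1 cells differed from vector cells by -2.67 log2 (6.34-fold lower) untreated and -1.65 (3.15-fold lower) treated. In ubAPE1 cells the differences were -2.14 (4.41-fold) and -1.80 (3.48-fold). The mean over both doxycycline states was -2.16 in wtAPE1 cells, the rank 9 from the lowest of 11619 rows, and -1.97 in ubAPE1 cells, the rank 11. In such bulk samples, fewer expressing cells and less RNA per cell cannot be told apart. Both lines are set against the same vector columns, so their ranks are not separate evidence. Its untreated wtAPE1 level lay under the 5.03 log2 asked of the row mean, and its other 5 levels lay above.

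ANXA3, an annexin known from neutrophil granules, was at 4.99 log2 untreated and 5.12 treated in vector cells. In wtAPE1 cells it was at 3.16 and 3.01, and in ubAPE1 cells at 3.03 and 2.95. The vector columns again lay above all others without overlap, and the 4 APE1 columns lay within a narrow band. The difference from the vector line was -1.62 untreated and -2.05 treated in wtAPE1 cells and -1.92 and -2.06 in ubAPE1 cells, with means of -1.83 (3.56-fold) and -1.99 (3.97-fold). ANXA3 did not pass the row filter, with a mean of 3.71 log2, and its APE1 columns lay under the 10th percentile of all values (4.09 log2). With values under that percentile raised to it, the means were -0.83 and -0.89, so the size of the ANXA3 difference depends on signals at the dim end of the array, while its direction was the same.

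**Figure D1:**
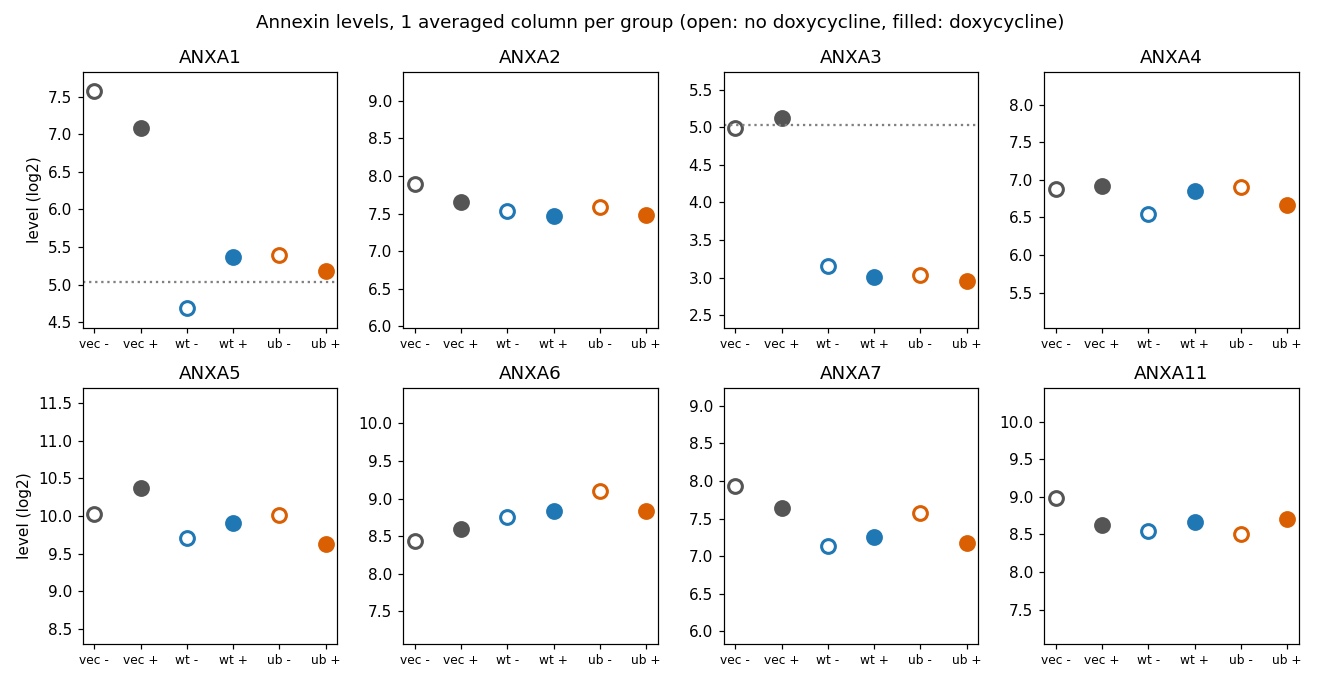
Level of each annexin (log2, y axis) in the 6 groups (x axis), where each point is 1 averaged column, open without and filled with doxycycline, and the dotted line is the row filter at 5.03 log2. All panels span the same log2 range, and ANXA1 and ANXA3 are the members whose 2 vector points stand far above the 4 APE1 points.

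ANXA6, whose molecule holds a duplicated annexin core, was the member that stood higher in both APE1 lines. Its level was 8.44 and 8.59 log2 in vector cells without and with doxycycline, 8.76 and 8.84 in wtAPE1 cells and 9.10 and 8.83 in ubAPE1 cells. The 2 vector columns were the lowest of the 6. The differences were 0.54 untreated and 0.31 treated in wtAPE1 cells and 0.70 and 0.35 in ubAPE1 cells. Their means of 0.42 and 0.53 were above those of 96.5% and 99.1% of rows. They did not reach 1.5-fold (0.58 log2) in both doxycycline states in either line.

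ANXA7, or synexin, which promotes membrane fusion, stood lower in both lines. Its levels were 7.94 and 7.64 log2 in vector cells, 7.13 and 7.26 in wtAPE1 cells and 7.58 and 7.17 in ubAPE1 cells, again without overlap, though the treated vector column and the untreated ubAPE1 column differed by less than the yardstick of 0.151. The differences were -0.60 and -0.31 in wtAPE1 cells and -0.32 and -0.36 in ubAPE1 cells. Only the untreated wtAPE1 value passed 1.5-fold.

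ANXA2, which forms a complex with S100A10 and binds plasminogen at the cell surface, was at 7.90 and 7.65 log2 in vector cells, 7.53 and 7.47 in wtAPE1 cells and 7.59 and 7.48 in ubAPE1 cells. The vector columns were the highest, but relative to the median row the differences were -0.06 to -0.27. Processed copies of ANXA2 exist in the genome and could share its probes. The row annotated to both ANXA2P2 and ANXA2 gave mean differences of -0.28 and -0.15, against -0.13 and -0.16 for the row of ANXA2 alone. In wtAPE1 cells this shared row differed from vector cells by -0.54 untreated and -0.01 treated. The rows of the copies ANXA2P1 and ANXA2P3 did not pass the filter.

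ANXA4, an annexin of epithelial membranes, had the narrowest range of the family. It was at 6.88 and 6.92 log2 in vector cells, 6.55 and 6.85 in wtAPE1 cells and 6.90 and 6.67 in ubAPE1 cells, with mean differences of -0.06 and -0.03. The groups overlapped.

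ANXA5, whose binding to exposed phosphatidylserine is used to mark dying cells, was at 10.02 and 10.37 log2 in vector cells, 9.71 and 9.90 in wtAPE1 cells and 10.01 and 9.63 in ubAPE1 cells. The vector columns were the highest, although the untreated vector and ubAPE1 columns were almost equal. Its difference was near 0 untreated (-0.09 and 0.03) and lower with doxycycline (-0.41 in wtAPE1 and -0.63 in ubAPE1 cells).

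ANXA11, which has a long tail and tethers RNA granules to lysosomes, was at 8.99 and 8.63 log2 in vector cells, 8.54 and 8.66 in wtAPE1 cells and 8.50 and 8.70 in ubAPE1 cells. Its groups overlapped. The differences changed sign with doxycycline, from -0.23 to 0.10 in wtAPE1 cells and from -0.45 to 0.18 in ubAPE1 cells.

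**Figure D2:**
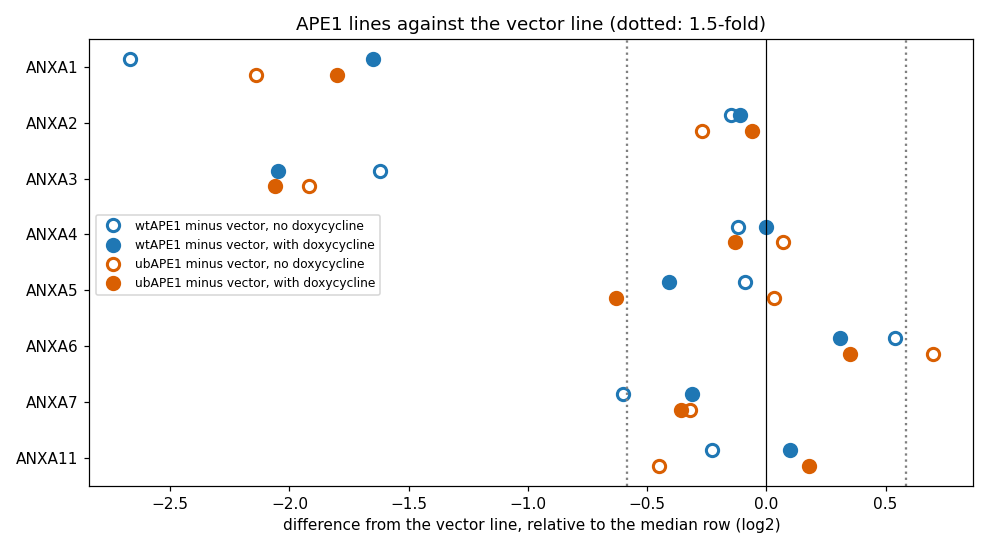
Difference of each APE1 line from the vector line (x axis, log2 relative to the median row) for the 8 annexins, with open points untreated and filled points treated with doxycycline. ANXA1 and ANXA3 lie between -1.62 and -2.67, and the other members lie between -0.63 and 0.70.

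By the size rule of 1.5-fold in the same direction in both doxycycline states, 1 of the 7 annexins passing the filter, ANXA1, was lower in wtAPE1 cells, where 2.61% of all rows passing the filter were lower. The same gene was lower in ubAPE1 cells, against 1.96% of rows. Without the row filter 2 of 8 annexins, ANXA1 and ANXA3, were lower in each line, against 2.56% and 2.06% of all 15492 rows. No annexin was higher by this rule in either line (0.361% and 0.37% of rows passing the filter were, and 0.445% and 0.4% of all rows). Since the family was chosen with ANXA1 known to be low, nothing is read from these counts. Over the 6 annexins other than ANXA1 that passed the filter, the median difference was -0.14 untreated and -0.05 treated in wtAPE1 cells, and -0.12 and -0.09 in ubAPE1 cells, against 0 for all rows by construction.

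**Figure D3:**
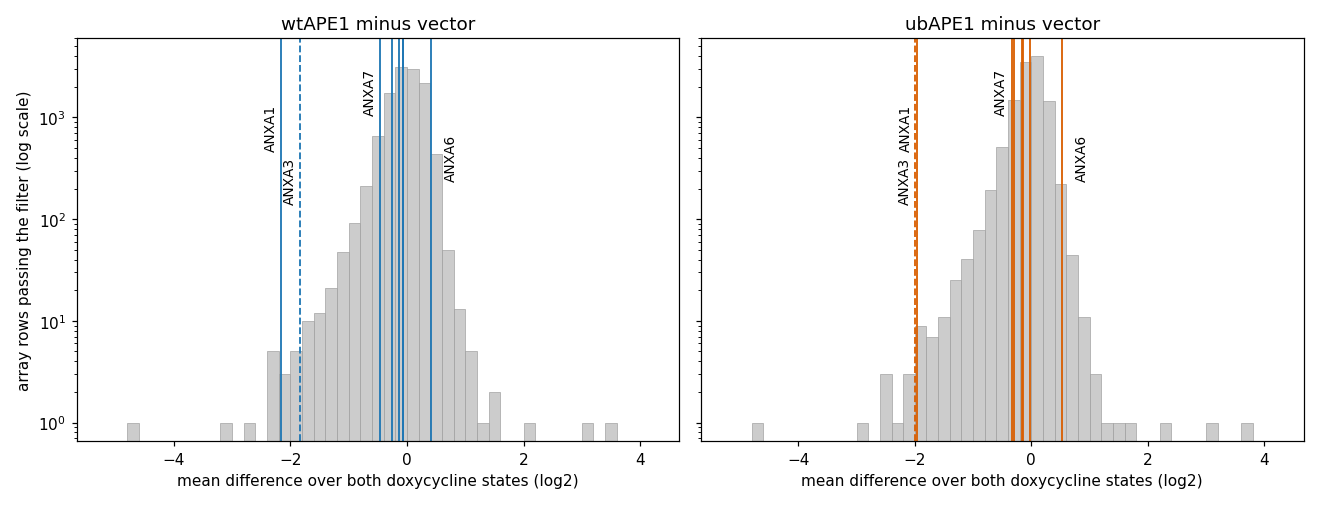
Mean difference from the vector line over both doxycycline states (x axis, log2 relative to the median row) for the 11619 rows passing the filter (y axis, number of rows on a log scale), with a vertical line for each annexin and a dashed one for ANXA3, which is not among the rows counted. ANXA1 lies at -2.16 and -1.97 and ANXA6 at 0.42 and 0.53.

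Between the 2 APE1 lines the annexins differed little. ANXA1 was higher in ubAPE1 than in wtAPE1 cells by 0.53 untreated but not treated (-0.14), so the untreated difference did not persist. As deposited the untreated difference was 0.70. The treated differences of all 8 members lay between -0.22 and 0.09. By the size rule in both states, 0 of 7 annexins were called, against 0% of rows higher and 0.0344% lower.

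The doxycycline response was described within each line. ANXA1 had the widest spread of responses in the family. It responded by -0.44 log2 in vector cells (1.35-fold lower), by 0.61 in wtAPE1 cells (1.52-fold higher) and by -0.08 in ubAPE1 cells. The vector response lay above 1.93% of rows and the wtAPE1 response above 99.6%. ANXA1 in wtAPE1 cells was the 1 response of 7 annexins past 1.5-fold, against 0.508% of rows higher in that line, and 0 of 7 passed lower there (0.422%). In vector cells 0 of 7 passed in either direction (0.947% of rows) and in ubAPE1 cells 0 of 7 (5.03%).

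The other members stayed under 1.5-fold in every line, though in ubAPE1 cells all but ANXA2 and ANXA3 responded by more than ANXA1. ANXA5 gave 0.40 in vector cells, 0.11 in wtAPE1 cells and -0.26 in ubAPE1 cells. ANXA11 gave -0.32, 0.04 and 0.33 in the same order. These 2 members thus ran in opposite order over the lines. In vector cells the ANXA5 response lay above 98.0% of rows and the ANXA11 response above 4.97%. ANXA7 gave -0.26, 0.06 and -0.28, ANXA2 gave -0.21, -0.14 and 0.02, and ANXA6 gave 0.20, 0.00 and -0.14. The row shared by ANXA2P2 and ANXA2 gave -0.18, 0.38 and -0.19. ANXA4 gave 0.09, 0.23 and -0.10, and ANXA3 gave 0.18, -0.22 and 0.05. In ubAPE1 cells the response varied with gene length over the array, with a median of 0.14 over rows of genes shorter than every measured annexin and of -0.09 over rows within the range of annexin lengths, against -0.03 and 0.02 in vector cells. The part of this trend in the annexin values was not tested.

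**Figure D4:**
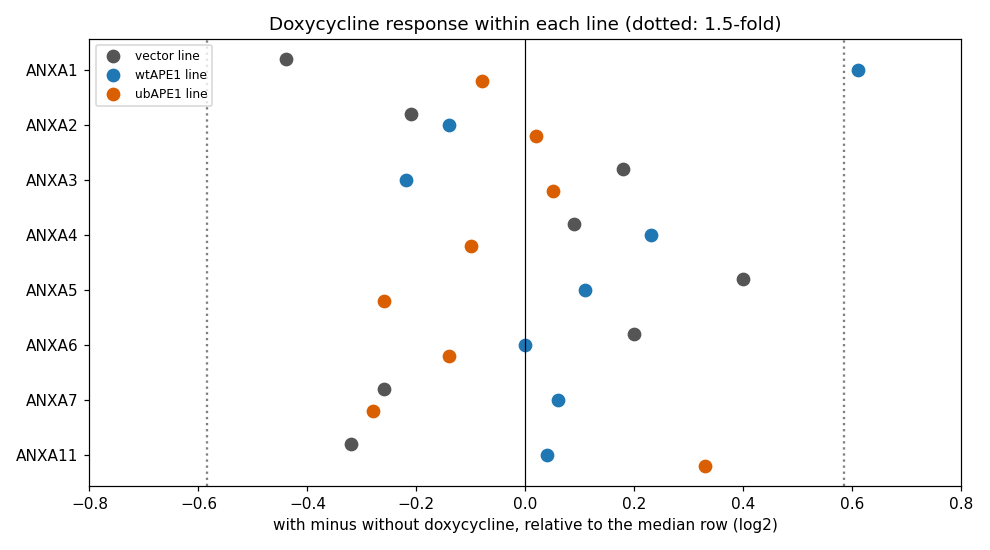
Response to doxycycline (x axis, with minus without, log2 relative to the median row) of the 8 annexins in the vector, wtAPE1 and ubAPE1 lines, where each point is the difference of 2 averaged columns. ANXA1 in wtAPE1 cells, at 0.61, is the single point past the dotted 1.5-fold lines.

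Set against the vector response, the ANXA1 response was higher by 1.04 log2 (2.06-fold) in wtAPE1 cells and by 0.33 in ubAPE1 cells. The vector response is subtracted in both cases, and its own value of -0.44 is part of each difference. ANXA1 was the 1 of 7 annexins at least 1.5-fold higher by this measure in wtAPE1 cells, against 2.56% of rows, and 0 of 7 were lower (1.52% of rows, and 4.08% in either direction). The measure is made of the same columns as the ANXA1 line difference on which the family was chosen, so nothing is read from this count. In ubAPE1 cells, ANXA11 was higher (0.63, against 3.49% of rows higher) and ANXA5 lower (-0.68, against 9.74% of rows lower and 13.2% in either direction). As deposited the ANXA11 value was 0.57, which does not reach the rule.

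An effect of doxycycline shared by the 3 lines was tested with limma, with the lines standing in for replicates. No annexin passed at an adjusted p of 0.05, and 0 of 11619 rows did (0%). In limma 194 rows had an unadjusted p under 0.05, none of them an annexin. APEX1, which rose in the wtAPE1 and ubAPE1 lines, had a fitted effect of 0.68 ± 0.19 (limma, unadjusted p = 0.00705) and did not pass either. The absence of a call thus does not show that doxycycline left the annexins unchanged. The fitted effects, as deposited, were -0.20 ± 0.15 log2 (SE) for ANXA7 (adjusted p = 1.0) and -0.14 ± 0.12 for ANXA2 (adjusted p = 1.0). As deposited, ANXA7 was lower with doxycycline in 2 of 3 lines and the row of ANXA2 alone in 3 of 3. The row shared by ANXA2P2 and ANXA2 gave a fitted effect of -0.03 ± 0.17. Its responses as deposited were -0.22 in vector, 0.46 in wtAPE1 and -0.32 in ubAPE1 cells. For ANXA5 and ANXA4 the effects were 0.05 ± 0.16 and 0.04 ± 0.14, for ANXA11 -0.02 ± 0.15 and for ANXA6 -0.01 ± 0.14. For ANXA1 it was -0.00373 ± 0.21, the mean of responses that differed in sign. Its residual SD of 0.43 log2 was above that of 98.6% of rows. Without the wtAPE1 line the ANXA1 effect was -0.35 and without the vector line 0.23, both far from an adjusted p of 0.05 (0.998 and 1.0).

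Rows that followed the profile of ANXA1 were found by distance over the 6 columns, after the column medians and the row mean had been subtracted. Nearest of 9652 rows of other genes were SLAIN1 (distance 0.26 log2), which encodes a microtubule protein, NTS (0.36), the neuropeptide neurotensin, CYP4X1 (0.51), a cytochrome P450, CNTN1 (0.52), a neuronal adhesion protein, and GLDC (0.53), the glycine decarboxylase of mitochondria. Their Pearson r with ANXA1 over the 6 columns was 0.977 to 0.995. All of these points share the 6 columns, of which the 2 vector columns are high. In the APE1 columns CNTN1 lay at 4.38 to 4.68 log2, under the 5.03 of the row filter, so it passed through its vector columns. SLAIN1 (4.70 to 5.26), NTS (4.46 to 5.21) and CYP4X1 (4.69 to 5.17) lay on both sides of 5.03 there, and GLDC lay above (5.12 to 5.47). By r alone the 5 nearest were EPB41L3, CDH2, RIOK3, TPD52 and TMEM106C, and 0 of these were among the 5 nearest by distance. CDH2, or N-cadherin, is also a HEK293 marker fixed for the check of the cells.

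**Figure D5:**
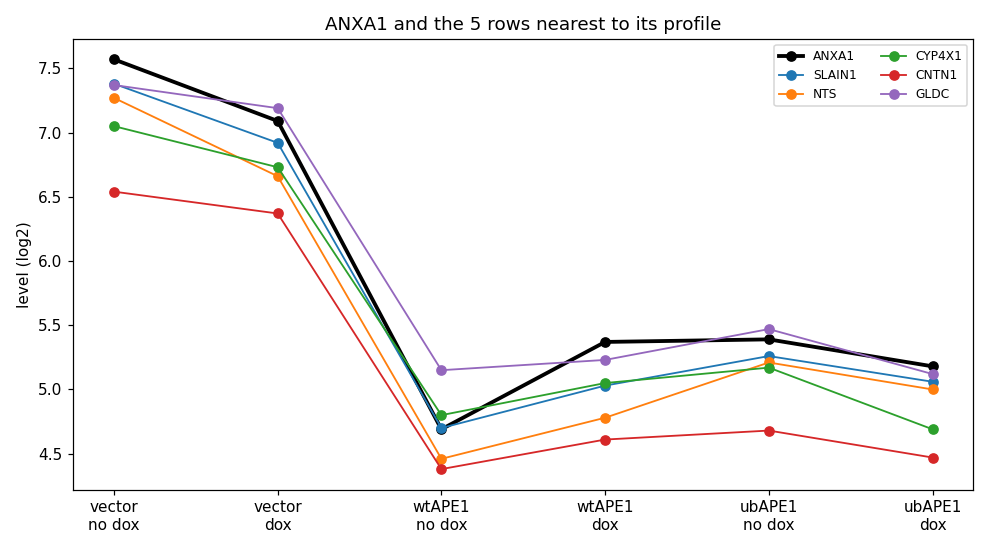
Level (y axis, log2) of ANXA1 and of the 5 rows nearest to its profile in the 6 groups (x axis), 1 averaged column per point. All 6 genes are high in both vector columns, and the step from the untreated to the treated wtAPE1 column is widest for ANXA1 (4.69 to 5.37).

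ANXA3 did not pass the filter and so was not in that pool; its distance from ANXA1 was 0.83 (r of 0.939). Of the 6 other annexins passing the filter, none was among the nearest 5. ANXA7 ranked 677 of the 9652 rows by distance (r of 0.894) and ANXA6 9510 (r of -0.939). For ANXA7, which had the widest range of the other members passing the filter, the nearest rows were CINP (0.06), NCOA1 (0.08), TTC17 (0.09), SGO1 (0.10) and WARS2 (0.13). For ANXA3, in a search without the row filter that was added after its values had been seen, the nearest of 12615 rows were KIF1A (0.16), TTC39A (0.23), ARFGEF3 (0.23), GPM6A (0.25) and PKP2 (0.31), and ANXA1 ranked 58.

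Among the 8 measured HEK293 markers, VIM, KRT18, EYA1, NEFL and CDH2 were lower in both APE1 lines than in the vector line, with no test. These are mean differences over both doxycycline states, relative to the median row. The smallest were those of VIM (-0.28 in wtAPE1 and -0.32 in ubAPE1 cells), and they came mostly from the untreated columns. Untreated, VIM was at 10.19 log2 in vector, 9.49 in wtAPE1 and 9.62 in ubAPE1 cells. With doxycycline it was at 9.84, 9.70 and 9.63 in the same order. PAX2 and LHX1 were higher in both lines. The mean level as deposited over the 8 measured markers was 8.18 and 8.04 log2 in vector cells, 7.56 and 7.74 in wtAPE1 cells and 7.66 and 7.71 in ubAPE1 cells. Relative to the median row, the mean differences were -1.38 and -1.27 for CDH2 and -0.68 and -0.70 for NEFL, a neurofilament. They were 0.53 and 0.49 for LHX1, a kidney transcription factor, 0.30 and 0.17 for PAX2, and for the keratin KRT8 0.07 and -0.03. The fibroblast marker COL3A1 was at 5.23 and 5.30 log2 in vector cells and at 5.79 to 5.83 in the 4 APE1 columns, with differences of 0.70 and 0.60, while COL1A1 gave 0.11 and -0.01. The mean over the 3 neutrophil and monocyte markers, cells rich in ANXA1 and ANXA3, was 4.21 to 4.37 log2 over the 6 groups. No marker was at 0. The part of these markers in the annexin differences was not tested.

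Of 51 genes listed as annexin partners, 33 were measured and 25 passed the filter, with 26 rows. In each APE1 line 1 row was at least 1.5-fold higher and 1 lower than in vector cells in both doxycycline states, against 0.361% and 0.37% of all rows higher and 2.61% and 1.96% lower. The median of the 26 rows was 0.03 in wtAPE1 and -0.03 in ubAPE1 cells. The lower row was PLAT, the tissue plasminogen activator that ANXA2 assembles with plasminogen, at 7.55 and 7.28 log2 in vector cells, 6.40 and 6.61 in wtAPE1 cells and 6.77 and 6.50 in ubAPE1 cells. Its vector columns stood above all others, with mean differences of -0.77 and -0.70. The higher row was 1 of 2 rows annotated to CHMP4B, a subunit of the machinery that seals membranes, with means of 0.81 and 0.76. The other row gave 0.16 and 0.27 and did not meet the rule. Which of the 2 rows reads CHMP4B itself was not tested, so the gene is not called higher here.

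Among S100 proteins, S100A10, the partner of ANXA2, was at 11.16 to 11.74 log2 with mean differences of -0.28 and -0.30. Of the other 2 S100 rows passing the filter, S100A13 lay the other way, with means of 0.50 and 0.34. S100A6 had means of 0.37 and 0.09 but changed sign, from 0.77 untreated to -0.04 treated in wtAPE1 cells. In ubAPE1 cells S100A6 went from 0.45 untreated to -0.28 treated. The medians of these means over the 3 rows were 0.37 and 0.09. S100A11, the partner of ANXA1, was at 2.58 to 3.45 log2 and did not pass the filter. The single measured formyl peptide receptor, FPR1, lay at 3.62 to 3.79 log2, below the filter in every column. PLA2G4A, the cytosolic phospholipase A2, did not pass either. Of the glucocorticoid receptor and its targets, TSC22D3 was at -0.56 and -0.59 and the receptor NR3C1 at -0.35 and -0.07, the target PER1 was at 0.23 and 0.08, and 0 of 3 rows met the size rule in both states. No partner row passed the test of the common doxycycline effect in limma, and 0 of 26 had an unadjusted p under 0.05. In ubAPE1 cells 2 partner rows responded lower by at least 1.5-fold, TRPM7 (-0.72) and TMEM30A (-0.60), which were named after their values had been seen, against 3.81% of rows.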

How the data were processed

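The authors deposited log2 levels, 1 per array row and group, from Affymetrix whole-transcript arrays, with 3 biological replicates averaged into each of 6 columns per the labels. That they are log2 is inferred from their range. How probes were summarised, corrected and normalized is not stated in the labels. Per the submitters' processing notes the build is hg 18, so no array coordinates are printed.

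Of 15492 rows, 12616 have 1 gene symbol in the platform annotation, 2031 have several and 845 have none. Rows with a mean at or above the 25th percentile of row means were kept (11619). Differences are relative to the median kept row. Single-column differences were described by size (1.5-fold) with no test. The common doxycycline effect was fitted with limma 3.58.1 (R 4.3.3), lmFit and eBayes, with cell line as a term (2 residual degrees of freedom, 6.28 prior) and Benjamini-Hochberg adjustment over all kept rows. The lines stand in for replicates, so its p-values measure evenness across them. The number of columns limits the precision.

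The members, partner and marker lists were chosen with earlier results of these data known. Every member with its own row is named. Alternatives were no or a stricter row filter (50th percentile), quantile normalization, centred columns, a floor at the 10th percentile, another eBayes setting, 1 row per gene, a 2-fold size rule, no line term and fits without each line in turn. Partners are named where a row was at least 1.5-fold apart in both doxycycline states or passed the test, others as examples of their group. The 5 rows nearest to ANXA1, and to the member of widest range after it, are named. Promoter windows are RefSeq's (GRCh38.p14), matched by symbol for all 8 genes (12 starts). The 50 bases after the start were left out.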

Additional observations from a re-analysis of the deposited data

Results flagged for a closer look

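Each result here was picked out because the responses of 2 lines to doxycycline had opposite signs and lay at least 1.5-fold apart. With 1 averaged column per group, none of these differences between lines was tested. For ANXA1, the wtAPE1 response (0.61) exceeded the vector response (-0.44) by 1.04 log2. The ubAPE1 response of ANXA1 (-0.08) differed from the wtAPE1 response by -0.69. For ANXA5, the ubAPE1 response (-0.26) differed from the vector response (0.40) by -0.65, and for ANXA11 the ubAPE1 response (0.33) differed from the vector response (-0.32) by 0.65. Here each response is centred on its own median row, whereas the excess over the vector response in the report is centred once, which gives -0.68 for ANXA5 and 0.63 for ANXA11. Of all 11619 rows passing the filter, 3.70% had opposite signs and lay this far apart between wtAPE1 and vector, 12.5% between ubAPE1 and vector and 11.4% between ubAPE1 and wtAPE1.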

How the results depend on the processing

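ANXA1 kept its direction in the differences of both APE1 lines from the vector line as deposited, after quantile normalization, with the floor at the 10th percentile and without the row filter, with means of -2.16 to -2.30 in the wtAPE1 line and -1.95 to -2.04 in the ubAPE1 line. Its wtAPE1 response was 0.61 to 0.68. With a 2-fold size rule, the counts of annexins called higher in the wtAPE1 response and higher or lower in the ubAPE1 response beyond vector went from 1 to 0 each, and as deposited the higher count in the last of these also went to 0 (ANXA11 at 0.57). Without the row filter 2 annexins, not 1, were lower in each APE1 line, since ANXA3 then counts. With columns centred, the common doxycycline effect had 9 rows past the threshold against 0 as deposited, none of them an annexin. The values carry no detection call, so levels near 3 log2, such as those of ANXA3 in the APE1 lines, have no known distance from background. Leaving out a replicate was not possible.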
